A study of Mus musculus with 25 samples.

Results

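The genes described here are the late cell cycle set of *Cdk1*, *Ccnb1*, *Ccnb2*, *Cdc25b*, *Cdc25c*, *Cdc20*, *Ube2c*, *Pttg1*, *Mki67* and *Top2a*. They were chosen by symbol, and all 10 were present in both expression tables, out of 15768 genes listed in either table. The levels come from RNA-seq of pituitaries of sh*Rb* mice, and the paper describes the sequenced samples of both experiments as pituitary tumors. These mice make a doxycycline (dox) dependent, GFP-linked shRNA against *Rb1*, the retinoblastoma tumor suppressor. Every mouse carried rtTA at *Rosa26*, whose promoter is broadly active, and the shRNA at *Col1a1*, and the line came from 1 embryonic stem cell clone. Mice received dox as adults in the drinking water, and no group without dox from the start is compared here. The age of each mouse is not given in the sources used here.

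The long-term experiment (poly(A)-enriched libraries) held 3 mice after 6 weeks of dox (6w+dox, all female), 4 mice after 12 weeks of dox (12w+dox, 2 female and 2 male) and 5 mice that had 6 weeks of dox followed by 6 weeks without it (12w-res, 3 female and 2 male). The short-term experiment (rRNA-depleted libraries) held 3 male mice after 16 weeks of dox (16w+dox) and mice taken 1 day (1d-dox, 4 female), 3 days (3d-dox, 3 male) or 5 days (5d-dox, 3 female) after dox was withdrawn at 16 weeks. Levels are given in FPM, library-scaled fragment values that the authors made with size factors, and the FPM of both experiments are not on one scale. A gene was called higher or lower when limma, fitted to log2(FPM + 0.5) over all groups of one experiment, gave a Benjamini-Hochberg adjusted p under 0.05 and a log2 fold change over 1 in size. The p-values measure only the spread between these mice.

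Entry into mitosis is driven by the kinase CDK1 bound to a B-type cyclin, and CDC25 phosphatases switch this complex on by removing inhibitory phosphates. The anaphase-promoting complex (APC/C), an ubiquitin ligase that acts with its activator CDC20 and the conjugating enzyme UBE2C, then marks the B cyclins and securin for destruction, which frees separase to part the sister chromatids. Most of these genes are transcribed late in the cell cycle, and in resting cells many late cell cycle promoters are held off by repressor complexes in which RB-family proteins take part, such as DREAM. DREAM is known to bind the cell cycle genes homology region (CHR), and the factor NF-Y binds CCAAT boxes that often lie upstream of it.

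The promoter stretches of 6 members are shown as examples of the kinase and cyclin genes, the APC/C genes and *Top2a*, to show how the motifs lie next to each other. Each is the 120 bases before a RefSeq start site (GRCm38.p6), written 5′ to 3′ on the strand of the gene. Capitals mark the letters of a CHR (TTTGAA or TTCGAA) or a CCAAT box (CCAAT). A match on the opposite strand appears as TTCAAA or ATTGG. The stretches are chr10:69352913-69353032 (minus strand) for *Cdk1*, chr13:100786487-100786606 (minus) for *Ccnb1*, chr9:70421555-70421674 (minus) for *Ccnb2*, chr4:118437344-118437463 (minus) for *Cdc20*, chr2:164769809-164769928 (plus) for *Ube2c* and chr11:99024190-99024309 (minus) for *Top2a*.
Cdk1: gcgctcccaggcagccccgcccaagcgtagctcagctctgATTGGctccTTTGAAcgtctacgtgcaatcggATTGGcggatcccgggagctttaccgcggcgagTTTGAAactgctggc
Ccnb1: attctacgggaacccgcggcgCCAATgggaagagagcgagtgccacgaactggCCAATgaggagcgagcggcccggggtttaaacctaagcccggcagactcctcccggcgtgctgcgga
Ccnb2: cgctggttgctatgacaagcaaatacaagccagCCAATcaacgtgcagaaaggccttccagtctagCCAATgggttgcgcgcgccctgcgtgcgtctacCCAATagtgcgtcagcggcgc
Cdc20: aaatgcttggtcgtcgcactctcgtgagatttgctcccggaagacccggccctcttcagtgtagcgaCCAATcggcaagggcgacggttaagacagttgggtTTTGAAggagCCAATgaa
Ube2c: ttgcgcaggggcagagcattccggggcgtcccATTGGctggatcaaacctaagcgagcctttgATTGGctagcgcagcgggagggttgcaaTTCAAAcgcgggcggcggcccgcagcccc
Top2a: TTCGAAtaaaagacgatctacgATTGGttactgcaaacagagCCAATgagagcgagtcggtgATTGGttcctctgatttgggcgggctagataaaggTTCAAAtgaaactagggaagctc

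The *Cdk1* stretch held 2 CHR matches and 2 CCAAT boxes, with 1 CHR ending 10 bases before the start site. *Cdc20* and *Ube2c* each held 1 CHR and 2 CCAAT boxes, *Ccnb1* held 2 CCAAT boxes without these CHR letters, and the CHR letters of *Ccnb2* lay outside the stretch shown. Over the full windows of 300 bases (250 before and 50 after the start site), 9 of the 10 members had a window in the RefSeq table, and *Cdc25c* had none. The CHR letters TTTGAA or TTCGAA were found in 7 of the 9, against 19.2% of all 32851 windows, and *Ccnb1* and *Pttg1* held neither. Other forms of the CHR were not searched. A CCAAT box was found in 8 of 9, against 37.4% of windows, and both motifs in 7 of 9, against 7.52%. The *Top2a* and *Ube2c* windows each held 6 CCAAT boxes, of which 1 pair in *Ube2c* overlapped on opposite strands, while *Cdc25b* had 1 CCAAT box and 1 CHR. An E2F sequence (TTTGGCGC, TTTCGCGC or GGCGGGAA on either strand) was found only in *Cdk1* among the 9 windows, against 2.96% of all windows. In *Pttg1* and *Cdc25b* the start site used lay well inside the annotated gene, so these windows may not be the promoters of the longest transcripts, and in *Mki67* and *Top2a* it lay a short way inside. These matches describe letters in a window and show no binding.

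**Figure D1:**
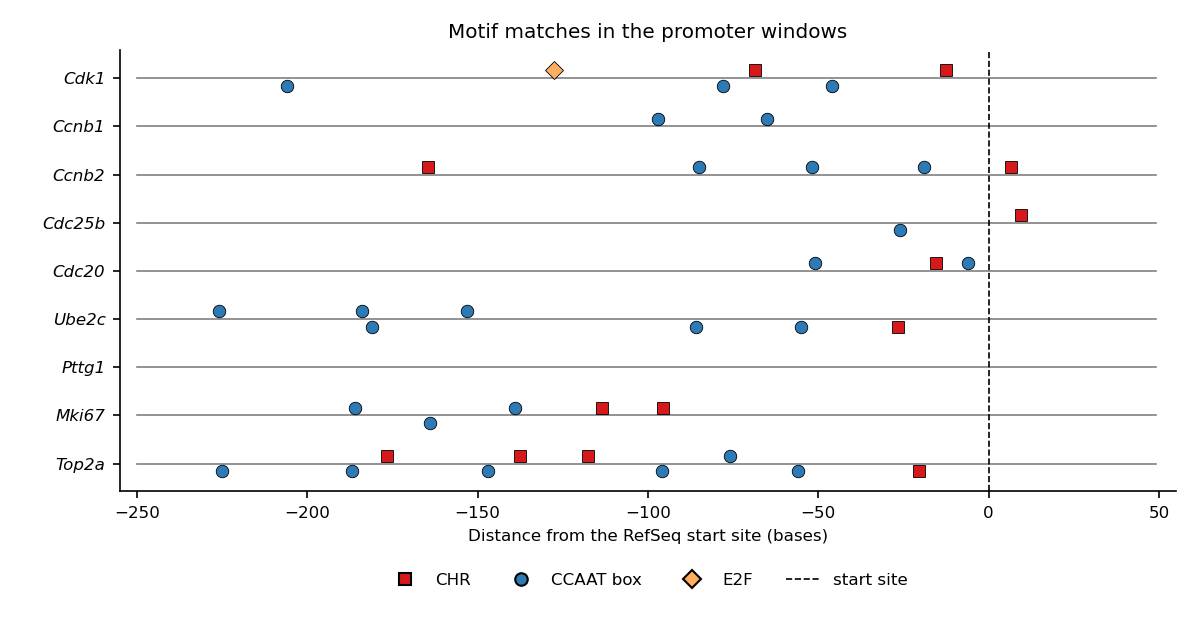
Matches to the CHR (squares), CCAAT box (circles) and E2F letters (diamond) in the windows of 9 members, by distance in bases from the RefSeq start site (dashed line), with matches on the strand of the gene above each line and on the opposite strand below it. In 7 of the 9 windows both a CHR and a CCAAT box are seen.

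*Rb1*, the target of the shRNA, lay between 1.86 and 5.09 FPM in the 7 dox-treated long-term mice and between 16.1 and 20.3 FPM in the 12w-res mice, as the labels require. Libraries held 19066053 to 28968476 reads on genes in the long-term and 9573101 to 13036900 in the short-term experiment. In bulk tissue, fewer cycling cells and less of an RNA per cell cannot be told apart.

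The first question was how these genes stood when dox had been off for 6 weeks. Against 12w+dox, 9 of the 10 members were called lower in 12w-res, where 5.04% of all 15315 genes tested were called lower. The median log2 fold change of the 10 members was -3.35, and that of all genes was -0.0040. The tenth, *Cdc25b*, passed the adjusted threshold, as 18.3% of all genes did in this direction, but not the minimum fold. In each of the 10 members every 12w-res mouse lay below every 12w+dox mouse, as in 17.4% of all genes.

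*Cdk1*, the mitotic kinase, lies on chromosome 10 (69335146 to 69352912). It stood at 61.4, 56.1 and 34.7 FPM in the 6w+dox mice and at 27.8, 44.7, 51.8 and 35.5 FPM in the 12w+dox mice. In the 12w-res mice it stood at 3.17, 2.75, 3.28, 2.83 and 3.43 FPM. The dox-treated groups overlapped, and the 5 rescue mice sat far below both and close to one another. The mean fell from 40.0 ± 10.5 FPM (SD, n = 4) to 3.09 ± 0.290 FPM (SD, n = 5), a 12.9-fold lower level. The log2 fold change was -3.46 (SE 0.19, limma adjusted p = 2.00e-08).

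*Ccnb1*, which encodes cyclin B1, the main mitotic partner of CDK1 (chromosome 13, 100778739 to 100786486), stood at 33.2, 28.3 and 22.4 FPM at 6w+dox and at 18.5, 28.5, 33.4 and 24.4 FPM at 12w+dox. In 12w-res it stood at 1.196, 1.48, 1.68, 2.48 and 2.38 FPM. The highest rescue mouse was well below the lowest dox-treated mouse. *Ccnb2*, for cyclin B2 (chromosome 9, 70407689 to 70421554), stood at 32.6, 27.2 and 19.1 FPM at 6w+dox, at 16.9, 23.5, 22.9 and 19.5 FPM at 12w+dox and at 2.03, 1.64, 1.09, 1.30 and 1.88 FPM in 12w-res. It too showed no overlap between rescue and dox-treated mice. Against 12w+dox, the log2 fold changes were -3.51 (SE 0.21, limma adjusted p = 3.76e-08) for *Ccnb1* and -3.35 (SE 0.19, adjusted p = 2.73e-08) for *Ccnb2*. Both genes have pseudogenes in the mouse annotation, so how reads shared with these copies were counted is uncertain.

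The pair of CDC25 phosphatase genes differed from each other. *Cdc25c* (chromosome 18), whose product acts on CDK1 at the entry into mitosis, stood at 11.2, 7.13 and 5.71 FPM at 6w+dox and at 3.87, 6.15, 7.42 and 5.64 FPM at 12w+dox. In 12w-res it stood at 0.52, 0.16, 0.23, 0.35 and 0.72 FPM, which are only 3 to 13 reads a mouse. *Cdc25b* (chromosome 2, 131186436 to 131198511), whose product helps to start CDK1 activation, stood at 142, 106 and 126 FPM at 6w+dox, at 105, 165, 149 and 162 FPM at 12w+dox and at 68.1, 75.4, 75.1, 79.8 and 81.2 FPM in 12w-res. Rescue and dox-treated mice did not overlap for either gene, but *Cdc25c* was 14.6-fold lower and *Cdc25b* 1.91-fold lower than at 12w+dox by group means. The log2 fold change was -2.81 for *Cdc25c* (SE 0.25, limma adjusted p = 1.56e-06) and -0.91 for *Cdc25b* (95% interval -1.1996 to -0.63, adjusted p = 1.44e-04). *Cdc25b* was called when 12w+dox replicate 1, the lowest of its group, was left out (-1.06), and in males alone (-1.11).

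The unequal change was tested as the log2 ratio of *Cdc25b* to *Cdc25c* within each mouse. The FPM ratio ran from 67.0 to 115, with a median of 94.0, in the 5 rescue mice and from 12.2 to 26.4, with a median of 20.4, in the 7 dox-treated long-term mice. The rescue mice were all above the dox-treated mice. The mean log2 ratio of FPM + 0.5 differed by 2.17 (two-sided exact permutation test, p = 0.0013, the smallest that 792 splits can give; Benjamini-Hochberg adjusted p = 0.0076 over the 6 ratio tests made). With so few *Cdc25c* reads the size of this difference depends on the pseudocount, and it was 3.02 with 0.1 and 1.61 with 1. For the ratio of *Ccnb1* to *Ccnb2* the difference was -0.07 (adjusted p = 0.759, exact permutation test), and for *Mki67* to *Top2a* it was 0.34 (adjusted p = 0.549, exact permutation test). The *Mki67* to *Top2a* FPM ratio lay between 1.34 and 1.45 in the 6w+dox mice, between 0.604 and 1.18 in the 12w+dox mice and between 1.20495 and 1.59 in the rescue mice. The rescue mice were thus above the 12w+dox mice and overlapped the 6w+dox mice, a separation seen after the pooled test and not tested.

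*Cdc20*, the APC/C activator that opens anaphase (chromosome 4, 118432901 to 118437343), stood at 35.4, 26.9 and 21.1 FPM at 6w+dox, at 16.6, 27.8, 29.7 and 23.0 FPM at 12w+dox and at 3.48, 1.80, 2.55, 2.60 and 2.27 FPM in 12w-res. *Ube2c*, the E2 enzyme that starts ubiquitin chains for the APC/C (chromosome 2, 164769929 to 164772902), stood at 72.7, 57.5 and 33.7 FPM at 6w+dox and at 21.2, 36.3, 39.6 and 28.5 FPM at 12w+dox. In 12w-res *Ube2c* stood at 2.18, 2.48, 1.82, 3.37 and 2.38 FPM. Neither gene overlapped between the rescue mice and any dox-treated mouse. *Cdc20* was 9.55-fold lower than at 12w+dox (log2 fold change -3.02, SE 0.21, limma adjusted p = 1.28e-07). *Ube2c* was 12.8-fold lower (-3.42, SE 0.23, limma adjusted p = 1.11e-07). The 3′ end of *Cdc20* overlaps *Elovl1*, and reads in the shared stretch cannot be told apart because the use of strand in the counting is not given in the sources used here.

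*Pttg1*, which encodes securin, the inhibitor of separase (chromosome 11, 43420244 to 43427463), stood at 33.1, 22.0 and 14.1 FPM at 6w+dox and at 6.63, 10.6, 12.9 and 10.03 FPM at 12w+dox. In 12w-res it stood at 0.88, 0.74, 1.05, 1.30 and 0.77 FPM. For this gene all 3 groups were separate, with 6w+dox highest and 12w-res lowest. The log2 fold change of 12w-res was -2.84 against 12w+dox (SE 0.25, limma adjusted p = 1.10e-06) and -3.95 against 6w+dox (SE 0.27, adjusted p = 1.31e-07).

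*Mki67*, the gene of the Ki-67 antigen used to score cycling cells (chromosome 7, 135689784 to 135716450), stood at 177, 161 and 122 FPM at 6w+dox, at 109, 108, 75.2 and 148 FPM at 12w+dox and at 8.06, 9.62, 10.7, 12.9 and 9.95 FPM in 12w-res. *Top2a*, which encodes topoisomerase II alpha, the enzyme that untangles sister DNA (chromosome 11, 98992947 to 99024199), stood at 122, 119 and 91.2 FPM at 6w+dox and at 92.7, 149, 125 and 151 FPM at 12w+dox. In 12w-res *Top2a* stood at 6.60, 6.97, 8.51, 7.91 and 7.90 FPM. Rescue mice were below all dox-treated mice for both genes. *Top2a* was 17.1-fold lower than at 12w+dox, and its log2 fold change of -3.98 (SE 0.15, limma adjusted p = 2.18e-09) was the 6th lowest of 15315 genes. *Mki67* was 10.7-fold lower (-3.34, SE 0.18, limma adjusted p = 1.37e-08).

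**Figure D2:**
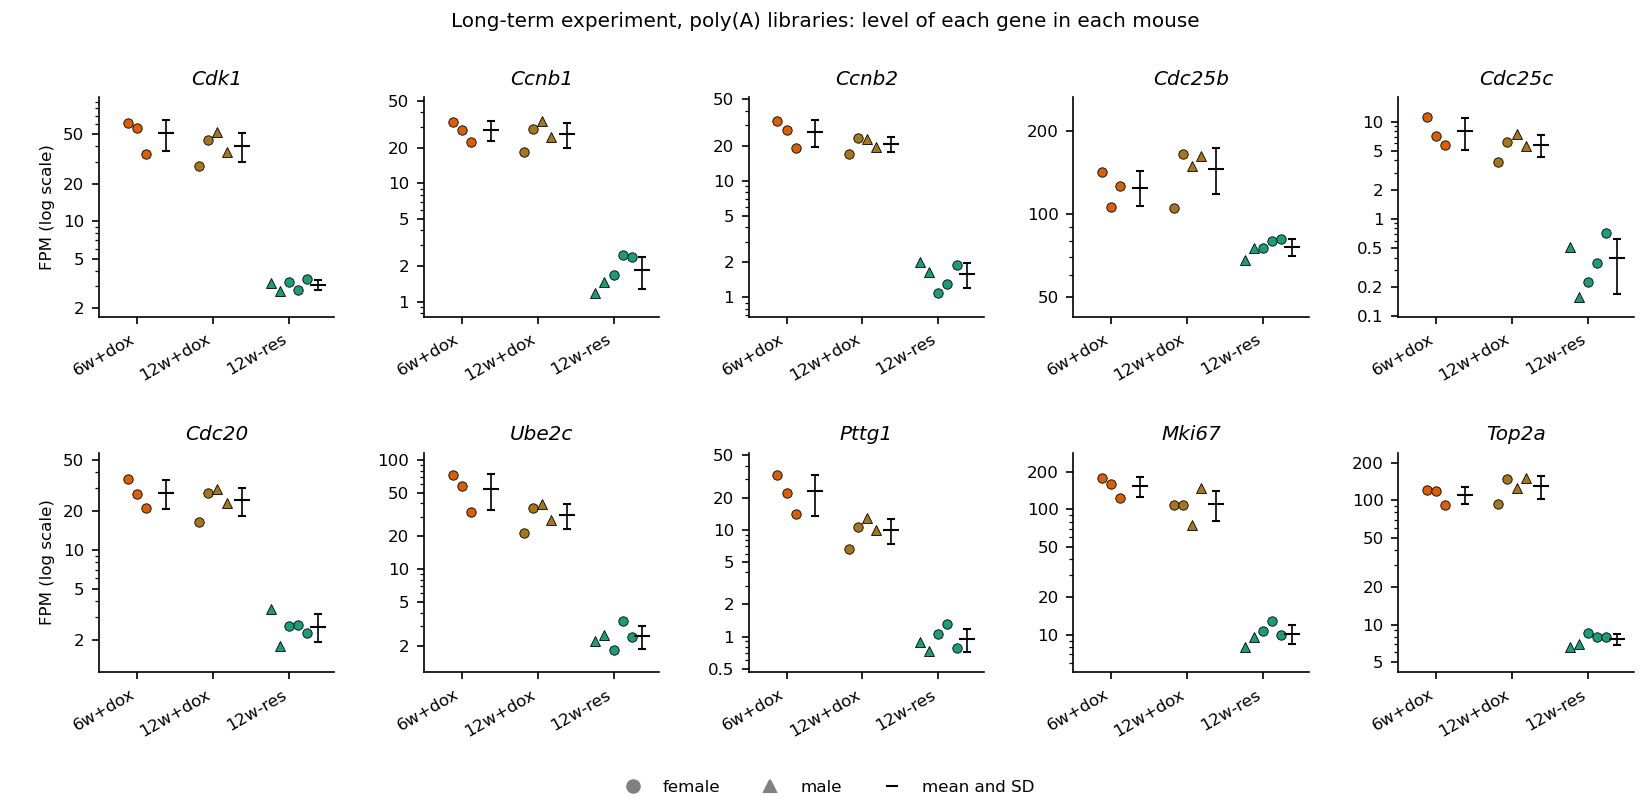
Level of each member (FPM, log axis) in every long-term mouse, circles for female and triangles for male mice, with the group mean ± SD as a black dash and bar. All 5 12w-res mice sit below all 7 dox-treated mice in every panel, by the least for Cdc25b.

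The comparison with 6w+dox, which uses the same 5 rescue mice, also called 9 members lower, where 5.82% of all genes were called lower and 15.9% had every rescue mouse below every 6w+dox mouse, as all 10 members had. The member median was -3.72 on the log2 scale. *Ube2c* was lowest (-4.18, SE 0.26, limma adjusted p = 4.72e-08), the 5th lowest of all genes, with group means 22.3-fold apart, and *Pttg1* was 24.3-fold lower by group means. *Cdc25b* was -0.70 (SE 0.15, adjusted p = 0.00219) and was not called. All 6w+dox mice were female, and among females alone 9 members were called, with a median of -3.70. Against all 7 dox-treated mice at once, a two-sided exact permutation test gave p = 0.0013 for 9 members, the smallest that 792 splits allow, and p = 0.0025 for *Cdc25b*. All 10 had the 5 rescue mice below the 7 dox-treated mice, as 8.49% of all genes had. The 10 members together took 0.0087% ± 0.0006 (SD, n = 5) of the gene reads in 12w-res, against 0.0617% ± 0.0005 (n = 3) for the 6w+dox mice and 0.0702% ± 0.0129 (n = 4) for the 12w+dox mice. Most of the 12w-res share came from *Cdc25b*, with 7208 reads over the group, against 971 for *Mki67*, the next member. The share also depends on other genes, and *Pomc* alone took 8568294 to 10879154 reads a mouse in 12w-res, against 3338567 to 6676275 at 12w+dox.

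The fall from 12w+dox to 12w-res was present in both sexes. In females the log2 fold changes ran from -0.74 (*Cdc25b*) to -3.78 (*Top2a*), and in males from -1.11 (*Cdc25b*) to -4.24, with all 10 members at a limma adjusted p under 0.05 in each sex, where 16.6% of all genes passed in females and 16.9% in males, in either direction. The interaction of sex and rescue did not pass for any member (limma adjusted p = 0.9997 for all 10). *Ccnb1* had the smallest unadjusted p of the interaction, at 0.0508, with a change 0.84 log2 units (SE 0.39) less negative in females.

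Between 6 and 12 weeks of continuous dox only *Pttg1* was called, and it was lower at 12w+dox (log2 fold change -1.11, SE 0.28, 95% interval -1.71 to -0.52, limma adjusted p = 0.0130), where 4.04% of all genes were called lower. It was also the only member without overlap between these groups, as were 12.4% of all genes in this direction. Mean *Pttg1* was 23.0 ± 9.54 FPM (SD, n = 3) at 6w+dox and 10.1 ± 2.60 FPM (SD, n = 4) at 12w+dox, 2.29-fold apart. This call rested on single mice, since it was lost without 6w+dox replicate 1 (-0.82, adjusted p = 0.0656), without 6w+dox replicate 2 (-1.10, adjusted p = 0.0509), without 12w+dox replicate 1 (-0.94, under the minimum fold) and in females alone (-1.32, adjusted p = 0.0581). Without 6w+dox replicate 3, *Ube2c* was called as well (-1.07, limma adjusted p = 0.00596), and with all mice it stood at -0.76 (adjusted p = 0.0544). The other members ranged from -0.50 for *Mki67* (adjusted p = 0.0931) to 0.21 for *Top2a* and *Cdc25b*. The 6w+dox group was all female, whereas 12w+dox held both sexes. Markers of several cell types were also called lower at 12w+dox against 6w+dox by limma, among them both somatotroph markers (*Gh* -4.57 and *Ghrhr* -2.79), *Prl* (-4.32), both thyrotroph markers, 3 of 5 fibroblast and pericyte markers and 2 of 4 neural lobe markers. DESeq2 did not call *Prl*, edgeR called 1 thyrotroph marker, and the highest fibroblast and pericyte marker was at 0.57. Of the 5 melanotroph and corticotroph markers *Pax7* was called higher (1.32), *Crhr1* lower (-1.80) and 3 were not called. The part of these marker changes in the lower *Pttg1* level was not tested.

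The mice of a group tended to rank alike across members. In FPM, 6w+dox replicate 1 was the highest of its group for all 10 members and replicate 3 the lowest for 9. At 12w+dox replicate 1 was the lowest for 9. The 6w+dox order depended on the scaling. As a share of gene reads the 10 members together took 0.0615%, 0.0613% and 0.0622% in 6w+dox replicates 1, 2 and 3. By that share 12w+dox replicate 1 was still the lowest of its group (0.0529%). In 12w-res no mouse was highest or lowest for more than 4. The median coefficient of variation over the members was 25.9% in the 6w+dox mice, 24.8% in the 12w+dox mice and 23.8% in the rescue mice.

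Markers of some other cell types differed between 12w-res and 12w+dox too. The summed level of 5 fibroblast and pericyte markers was 137 to 188 FPM at 6w+dox, 100.1 to 231 FPM at 12w+dox and 390 to 469 FPM in 12w-res, with 5 of 5 called higher in 12w-res against 12w+dox and 2 of 5 against 6w+dox. The 4 endothelial markers summed to 149 to 201 FPM, 50.5 to 109 FPM and 160 to 228 FPM in the same order, with 3 called higher against 12w+dox and 0 against 6w+dox (3 at an unadjusted p under 0.05 in limma, and 0 called by edgeR and DESeq2). The 5 immune markers measured summed to 75.1 to 107 FPM, 76.2 to 102 FPM and 120 to 172 FPM. Against 12w+dox all 5 had an unadjusted p under 0.05 in limma, but limma, edgeR and DESeq2 called 0. *Prl*, the lactotroph hormone, ranged from 9172 to 11704 FPM, from 214 to 4940 FPM and from 5659 to 11697 FPM, so that 12w+dox was the low group. The somatotroph markers *Gh* and *Ghrhr* summed to 45903 to 80171 FPM, 933 to 7500 FPM and 6393 to 24762 FPM. Against 12w+dox *Gh* was called higher, and against 6w+dox both were called lower. Limma called 0 of 2 thyrotroph, 0 of 4 gonadotroph and 0 of 4 neural lobe markers in 12w-res against 12w+dox. There edgeR and DESeq2 each called 1 neural lobe marker.

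The melanotroph and corticotroph markers did not move as one. *Pomc*, their hormone gene, ranged from 107477 to 376655 FPM at 6w+dox, from 93231 to 194592 FPM at 12w+dox and from 452682 to 573321 FPM in 12w-res. Of the 5 markers, limma called only *Pcsk2*, a prohormone convertase, higher against 12w+dox (1.37), while edgeR and DESeq2 each called 2. *Pomc* had the largest change of the 5 (1.86) and every 12w-res mouse above every 12w+dox mouse, but limma did not call it. The transcription factor genes *Tbx19* (-0.14) and *Pax7* (-0.38) and the receptor gene *Crhr1* (-0.02) were not called, and the median of the 5 was -0.02. Of the stem cell markers, *Sox9* was called higher (1.14) and *Sox2* was at -0.38 and not called. The part of these differences in the lower level of the members was not tested. Scaling by total reads moved the median of all genes by -0.61 log2 units between 12w-res and 12w+dox, where the 10 members then had a median of -3.95 and all 10 were called lower. Over all genes that scaling gave 3364 lower and 244 higher calls, in place of 772 and 955.

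Levels were compared between members per kb of the longest annotated transcript. That transcript need not be the main one in these pituitaries, so the order of members depends on this choice, and other lengths were not tried. *Cdc25b* was the highest in each long-term group, at 40.4, 47.0 and 24.6 FPM per kb in 6w+dox, 12w+dox and 12w-res, with no overlap with the next gene. *Cdc25c* was the lowest, at 3.04, 2.19 and 0.150 FPM per kb, again without overlap with the next gene above it, which was *Ccnb1* at 6w+dox and *Pttg1* in the other groups. The genes between them overlapped with their neighbours in the order both at 12w+dox, where they ran from *Top2a* at 24.8 FPM per kb to *Pttg1* at 6.00, and in 12w-res, where they ran from *Top2a* at 1.45 to *Pttg1* at 0.567.

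**Figure D3:**
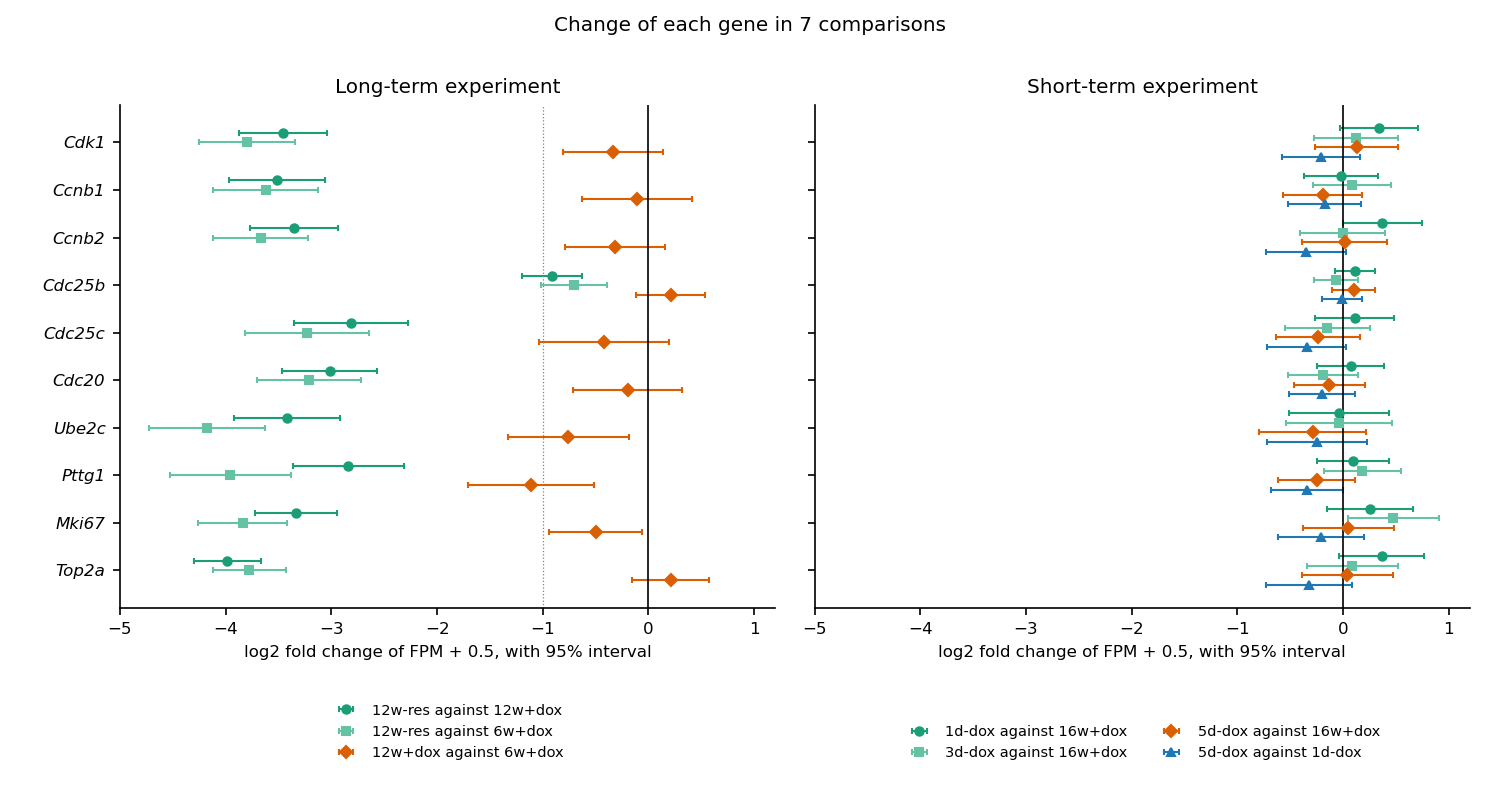
Log2 fold change of each member with its 95% interval (limma), for the 3 long-term comparisons on the left and the 4 short-term comparisons on the right, with a dotted line at -1 on the left. In the rescue comparisons 9 members lie beyond -2 and Cdc25b lies above -1, and on the right all values lie within 1 of 0.

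The short-term experiment asked what the members did in the first days after dox was withdrawn from mice treated for 16 weeks. *GFP*, which is linked to the shRNA, had a mean of 1247 ± 192 FPM (SD, n = 3) in the mice kept on dox, which was 606 ± 199 FPM (n = 4) after 1 day, 122 ± 46.0 FPM (n = 3) after 3 days and 11.7 ± 3.08 FPM (n = 3) after 5 days. *Rb1* had means of 4.19 ± 0.709, 4.46 ± 1.07, 5.01 ± 0.911 and 5.12 ± 0.239 FPM in the same order. Against 16w+dox, limma called 0 of 10 members after 1 day, 0 after 3 days and 0 after 5 days, and 0.043%, 0.129% and 0.193% of the 13958 genes tested were called in either direction. edgeR and DESeq2 called 0 members in each of these comparisons as well. At an unadjusted p under 0.05 there were 0, 1 and 0 members, and the 1 at 3d-dox was *Mki67*, higher as were 7.95% of all genes.

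*Mki67* stood at 130, 87.5 and 103 FPM at 16w+dox, at 119, 145, 149 and 98.3 FPM at 1d-dox, at 131, 116 and 208 FPM at 3d-dox and at 104, 104 and 120 FPM at 5d-dox. All groups overlapped, and 3d-dox replicate 3 was the highest of the 13 mice. The log2 fold change at 3d-dox was 0.48 (95% interval 0.04 to 0.91, limma unadjusted p = 0.0339, adjusted p = 0.255), and it was 0.22 without that mouse. *Top2a* stood at 83.3, 51.4 and 71.0 FPM at 16w+dox, at 91.5, 93.9, 102 and 64.4 FPM at 1d-dox, at 67.5, 56.9 and 94.7 FPM at 3d-dox and at 62.0, 70.6 and 75.3 FPM at 5d-dox. Its groups overlapped too. The ratio of *Mki67* to *Top2a* lay between 1.93 and 2.19 in the 3d-dox mice and at most at 1.70 in the other short-term mice, a separation seen in the values and not tested.

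*Cdk1* stood at 9.73, 6.33 and 6.97 FPM at 16w+dox, at 10.5, 10.8, 10.3 and 7.53 FPM at 1d-dox, at 8.49, 6.55 and 10.1 FPM at 3d-dox and at 7.63, 7.58 and 9.88 FPM at 5d-dox. No group was apart from 16w+dox. *Ccnb1* lay between 3.87 and 6.88 FPM, *Ccnb2* between 3.37 and 7.08 FPM, *Cdc20* between 3.43 and 5.75 FPM and *Ube2c* between 4.40 and 9.26 FPM over the 13 mice. *Cdc25b* lay between 36.3 and 48.8 FPM, and its 4 mice at 1d-dox were all above the 3 at 16w+dox by a small margin (log2 fold change 0.11, limma adjusted p = 0.625), where 5.6% of all genes lay above in this way. *Cdc25c* and *Pttg1* rested on few reads, 30 to 75 and 34 to 108 a mouse.

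**Figure D4:**
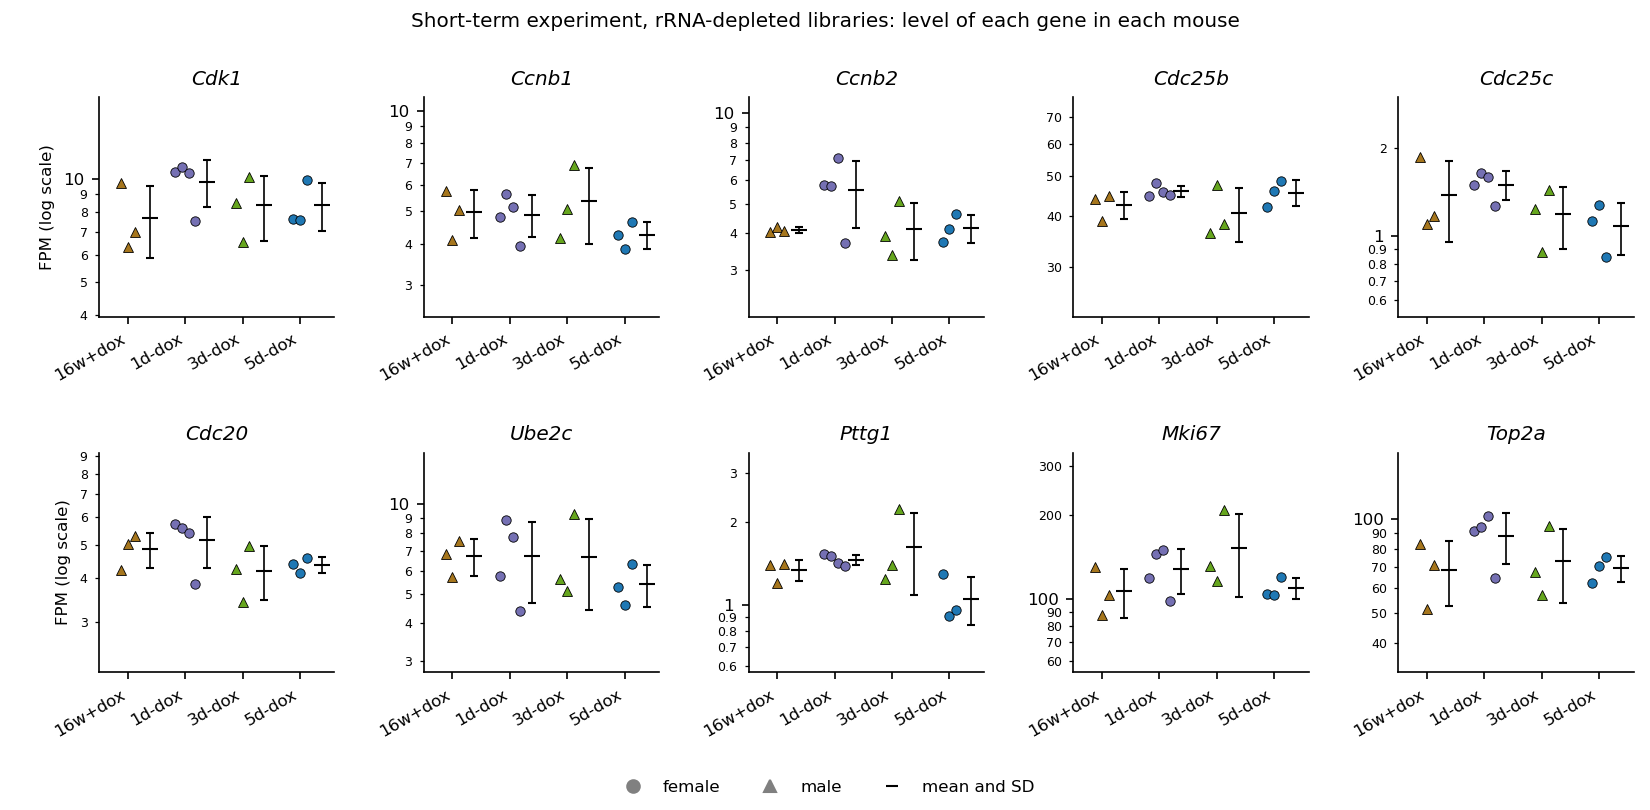
Level of each member (FPM, log axis) in every short-term mouse, circles for female and triangles for male mice, with the group mean ± SD as a black dash and bar. The groups overlap in most panels, and 3d-dox replicate 3 is the highest of its group for 9 of the 10 members.

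The intervals bound how far the members could have moved at these times. Over the 10 members the 95% intervals against 16w+dox ran from -0.51 to 0.77 at 1d-dox, from -0.55 to 0.91 at 3d-dox and from -0.79 to 0.52 at 5d-dox, in log2 units. The member medians were 0.11, 0.039 and -0.057. A change beyond 1 log2 unit lay outside every interval, while smaller changes within these ranges lay inside the interval of at least some member. Sex and time cannot be told apart at 1d-dox and 5d-dox, where all mice were female and the 16w+dox mice male. The 3d-dox mice were male like those at 16w+dox.

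Between 5d-dox and 1d-dox, both female, 0 members were called, with 0.0143% of all genes called. All 10 log2 fold changes were below 0, from -0.35 for *Ccnb2* and *Cdc25c* to -0.01 for *Cdc25b*, but none had an unadjusted p under 0.05 the smallest adjusted p was 0.766 (limma), and edgeR and DESeq2 also called 0. *Pttg1* stood at 1.52, 1.496, 1.42 and 1.38 FPM at 1d-dox and at 1.29, 0.91 and 0.96 FPM at 5d-dox. It was the only member without overlap between these groups (log2 fold change -0.34, limma unadjusted p = 0.0501), where 3.51% of all genes lay below in this way.

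Within the short-term groups single mice again stood at one end for most members. At 1d-dox, replicate 4 was the lowest for 9 members, and at 3d-dox replicate 3 was the highest for 9 members. In that 3d-dox mouse *Pomc* stood at 11837 FPM, against a mean of 35744 FPM at 16w+dox. At 16w+dox, replicate 2 was the lowest for 8, and at 5d-dox replicate 3 was the highest for 8. Per kb, *Cdc25b*, *Top2a* and *Mki67* were the 3 highest members in all 4 groups with overlapping levels, at 13.8, 13.1 and 10.6 FPM per kb at 16w+dox, and *Cdc25c* was the lowest at 0.524 FPM per kb.

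The genes that act with the members were read from lists of related functions. Of 15 measured genes of CDK1 control, 10 were called lower in 12w-res against 12w+dox, with a median log2 fold change of -1.80. They included *Ccna2* (cyclin A2, -3.45), *Gtse1* (-2.81), *Foxm1* (a transcription factor of mitotic genes, -2.77) and *Cks2* (a CDK-binding subunit, -2.75). *Cdc25a*, the third CDC25 phosphatase, was at -0.01 (limma adjusted p = 0.953). Of 14 core APC/C subunits limma called 0, with a median of -0.12 (from -0.97 to 0.56) and 3 at an unadjusted p under 0.05, while edgeR and DESeq2 each called *Anapc15* lower.

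Of 8 regulators of the APC/C, 4 were called lower, namely the checkpoint kinase gene *Bub1b* (-3.56), the APC/C inhibitor *Fbxo5* (-1.87), *Mad2l1* (-1.69) and *Trip13* (-1.42). Of 14 genes of separase and cohesin, 4 were called lower. These were *Espl1* (separase, -2.99), *Sgol1* (-2.99) and *Sgol2a* (-2.72), the shugoshins that guard centromeric cohesin, and *Cdca5* (sororin, -2.75). The other 10 lay between -0.78 and 0.09. The list of topoisomerases and condensin held 11 genes, counting the kinesin motor gene *Kif4* with them. Of these 11, 7 were called lower, led by *Kif4* (-3.49), *Ncaph* (-3.36) and *Ncapg* (-3.12). *Top2b*, the paralog of *Top2a*, was at -0.24 and *Top1* at 0.13, neither called. All 16 S phase genes were called lower, with a median of -2.42, among them *Rrm2* (-3.18) and the helicase subunits *Mcm3* (-3.06) and *Mcm5* (-3.03).

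**Figure D5:**
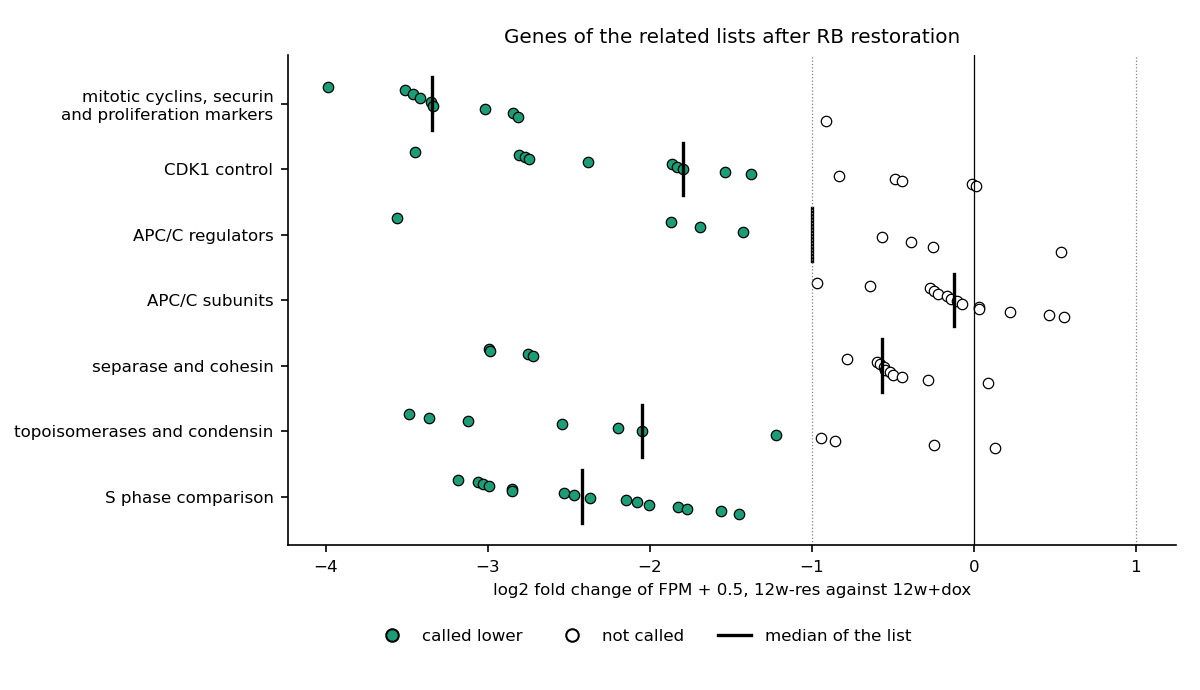
Log2 fold change between 12w-res and 12w+dox for the members and for each gene of 6 related lists, filled points for genes called lower and open points for genes not called, with the list median as a bar and dotted lines at -1 and 1. The 16 S phase genes and 9 members are filled, and the 14 APC/C subunits are open and lie around 0.

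Against 6w+dox the counts called lower were 9 of 15 for CDK1 control, 0 of 14 for APC/C subunits, 5 of 8 for APC/C regulators, 4 of 14 for separase and cohesin, 6 of 11 for topoisomerases and condensin and 15 of 16 for S phase. Between 12w+dox and 6w+dox, 3 genes of these lists were called, where 483 of all 15315 genes were called higher and 619 lower. *Wee1*, the kinase that opposes the CDC25 phosphatases, was higher (1.11, limma adjusted p = 9.33e-04), *Ccne2* was higher in limma (1.17, adjusted p = 0.0358) but not called by edgeR and *Anapc13* was lower (-1.06, adjusted p = 0.0148). In the short-term experiment 74 genes of these lists were tested, and 0 were called by limma, edgeR or DESeq2 in any comparison. At an unadjusted p under 0.05 (limma) there were 13 after 1 day, 6 after 3 days and 2 after 5 days against 16w+dox, and 6 in 5d-dox against 1d-dox. These were 17.6%, 8.11%, 2.70% and 8.11% of the 74, against 13.1%, 16.6%, 13.5% and 6.33% of all genes.

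Likeness to the members was measured as the root mean square difference in log2(FPM + 0.5) from the median of the members, each centred on its experiment, over all 25 mice and 13517 genes. The 8 most alike genes that are not members were *Nuf2* (0.12), *Tpx2* (0.14), *Birc5* (0.16), *Cdca8* (0.17), *Mcm3* (0.17), *Dlgap5* (0.19), *Cks2* (0.21) and *Aurkb* (0.21), and the median gene stood at 1.21. Among the members, *Cdk1* was closest, at rank 3, and *Cdc25b* farthest, at rank 655 with a difference of 0.91. When each gene was centred on its group means, only *Nuf2* and *Cks2* of the 8 remained among the 8 most alike.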

How the data were processed

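Pituitary RNA-seq of 12 long-term and 13 short-term mice was analysed in 7 groups, mapped from the sample labels. Per their methods, the authors aligned paired-end reads to mm10 (STAR, defaults) and kept RefSeq genes above a read minimum. The deposited values are a signal, FPM scaled by DESeq2 size factors. The counting tool and its use of strand are not given in the sources used here. In both files 100% of values were whole multiples of 1 read within 0.1 of a read, so reads were recovered, and 0 per-sample columns were left unused. Lines without a gene name (4 short-term lines with 68.8% to 75.0% of a library, and 2 empty long-term lines) stayed out of depths and tests. Mice of one group differed by more than counting error alone (chi-square over its degrees of freedom from 3.93 to 222).

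The main test was limma 3.58.1 (R 4.3.3) with a mean-variance trend on log2(FPM + 0.5), with all groups of one experiment in one fit and Benjamini-Hochberg adjustment over all genes with at least 10 reads in over 50% of the samples of one condition (adjusted p under 0.05 and a log2 fold change over 1 in size). Fold changes on this scale understate those of low genes, and folds of group means use FPM. Alternatives were edgeR 4.0.16 and DESeq2 1.42.0 on the recovered reads, other scalings, pseudocounts, filters, sexes and samples. Exact permutation tests used scipy 1.17.1. Tests on simulated data covered the limma, edgeR and DESeq2 fits. Transcript lengths were those of the longest GENCODE transcript, and promoter windows came from RefSeq (GRCm38.p6).

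The members and related lists were chosen with earlier results of these data known. Text names all members, *Rb1* and *GFP* as checks, *Pomc* as a scaling check, up to 4 genes of each list by size of change, and the 8 genes most like the members. *Cdc25a*, *Top1*, *Top2b*, *Anapc15* and the cell type markers were named after their values were seen.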

Additional observations from a re-analysis of the deposited data

Results flagged for a closer look

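Among 30 combinations of a member and a group of 4 or 5 mice, 1 held a mouse far from the others. *Cdk1* stood at 7.53 FPM in 1d-dox replicate 4, while the other 3 mice stood between 10.3 and 10.8 FPM, so that 0.866 of the range of the group was the gap to the nearest mouse. The same mouse was the lowest of its group for 9 of the 10 members. About 1 in 20 such combinations passes this limit by chance.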

How the results depend on the processing

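In the 12w-res comparisons each member kept its direction under all alternatives run, and 9 or 10 members were called, except that *Cdc25c* was not tested when 10 reads were required in every sample. The median against 12w+dox was -3.95 with totals of recovered reads, -3.68 with edgeR and -3.69 with DESeq2, and against 6w+dox it was -4.00 with totals. *Cdc25b* was called with totals (-1.57 against 12w+dox and -1.03 against 6w+dox). Between 12w+dox and 6w+dox, totals moved the median of all genes by 0.29, called 0 members (*Pttg1* -0.80, limma adjusted p = 0.0288), set the member median at -0.0033 and turned *Ccnb1* (0.21), *Ccnb2* (0.0052) and *Cdc20* (0.13). In females alone 0 members were called, and leaving out 1 mouse gave 0 to 2.

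Members that were not called changed sign in the short-term comparisons. At 3d-dox, where totals moved the median of all genes by 0.14, *Cdc25b* was 0.082, *Ube2c* 0.10 and *Ccnb2* 0.13 with totals, *Ube2c* 0.0024 and *Ccnb2* 0.020 with edgeR and *Ccnb2* 0.013 with DESeq2. At 5d-dox *Mki67* was -0.030, *Ccnb2* -0.055 and *Top2a* -0.040 with totals. Leaving out 1 mouse gave a range from -0.26 to 0.045 for *Ccnb1* at 12w+dox against 6w+dox. At 1d-dox it gave -0.14 to 0.082 for *Ccnb1*, -0.018 to 0.19 for *Cdc20* and -0.18 to 0.13 for *Ube2c*. At 3d-dox it gave -0.094 to 0.24 for *Ccnb1*, -0.15 to 0.12 for *Ccnb2*, -0.19 to 0.0095 for *Cdc25b*, -0.26 to 0.030 for *Cdc25c*, -0.016 to 0.30 for *Cdk1*, -0.017 to 0.31 for *Pttg1*, -0.12 to 0.25 for *Top2a* and -0.28 to 0.11 for *Ube2c*. At 5d-dox it gave -0.053 to 0.084 for *Ccnb2*, -0.084 to 0.20 for *Mki67* and -0.15 to 0.19 for *Top2a*, and between 5d-dox and 1d-dox -0.061 to 0.044 for *Cdc25b*. The *Ccnb1* to *Ccnb2* ratio ranged from -0.21 to 0.11, and *Cdc25b* to *Cdc25c* off dox against 16w+dox from -0.027 to 0.24. Of the 8 genes most like the members, 2 stayed when group means were removed. The cause was not tested.

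Replicate numbers did not pair the mice. The deviations of same-numbered mice correlated over 0.1 in 1 of 10 long-term and 3 of 18 short-term pairs. With the replicate block the members called were 9, 9 and 1 in the long-term and 0 in each short-term comparison, with medians of -3.37, -3.78 and -0.29, and of 0.18, 0.039, -0.057 and -0.34, and at 1d-dox *Ube2c* was 0.13 and *Ccnb1* 0.069. Over all genes at 3d-dox against 16w+dox, the block left 1 call in place of 18. DESeq2 made 29 higher and 84 lower calls at 1d-dox over all genes, where limma made 1 and 5, and none were members.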
